A study of Solanum lycopersicum with 9 samples.

Results

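The genes described here had their highest signal at breaker, the stage at which the fruit of tomato (Solanum lycopersicum) shows its first colour, and stayed lower at every later stage. For each gene the gap was taken as the lower of the 2 breaker signals minus the highest of the 7 signals at turning, pink and red ripe, and the 150 genes with the largest gap, of 21326 genes that the array annotation names by 1 symbol, were kept. They are called breaker-high genes below. The samples were wild type fruit of the cultivar Ailsa Craig, labelled as pericarp, from plants in an open greenhouse on hydroponics, and there were 2 arrays of breaker, 2 of turning, 2 of pink and 3 of red ripe fruit. No treatment or mutation is given for any stage, and stages were judged by skin colour, with no age in days in the labels. RNA was measured on Affymetrix TomGene ST 1.1 arrays, where several probes make up the probe set of a transcript, and values are log2 signals, so that a difference of 1 is a 2-fold change.

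At breaker a tomato fruit passes from growth and green metabolism to ripening. Chloroplasts turn into chromoplasts, chlorophyll is lost, ethylene synthesis changes to the self-stimulated form that drives ripening, and enzymes of the cell wall loosen the tissue. The genes were selected on breaker against the later arrays, so the differences from breaker are given as a description with no test. Among all 21326 genes 2075, or 9.73%, had both breaker arrays above all 7 later arrays, and 1000 had both below them. A gap as large as that of the breaker-high genes was reached in the opposite direction by 9 genes.

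The gap of the 150 genes ran from 3.91 to 1.35 with a median of 1.75. Over the 150 genes the median of the stage mean was 5.45 for breaker, then 2.70 for turning, 2.54 for pink and 2.68 for red ripe. The median difference from breaker was -2.59 in turning fruit (range -4.69 to -1.48), -2.85 in pink fruit (-5.78 to -1.59) and -2.44 in red ripe fruit (-5.19 to -1.57), against medians over all genes of -0.12, -0.09 and 0.04. The rule places every later array below breaker, but not which later stage is lowest, and the lowest stage mean was that of turning in 44 genes, of pink in 59 and of red ripe in 47. The signals in the upper range moved as well, since the 90th percentile of all probe sets was 5.09 to 5.15 on breaker arrays, 4.17 to 4.51 on turning arrays, 4.4 to 4.55 on pink arrays and 5.24 to 5.43 on red ripe arrays. The part of that shift in the differences at turning and pink was not tested.

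**Figure D1:**
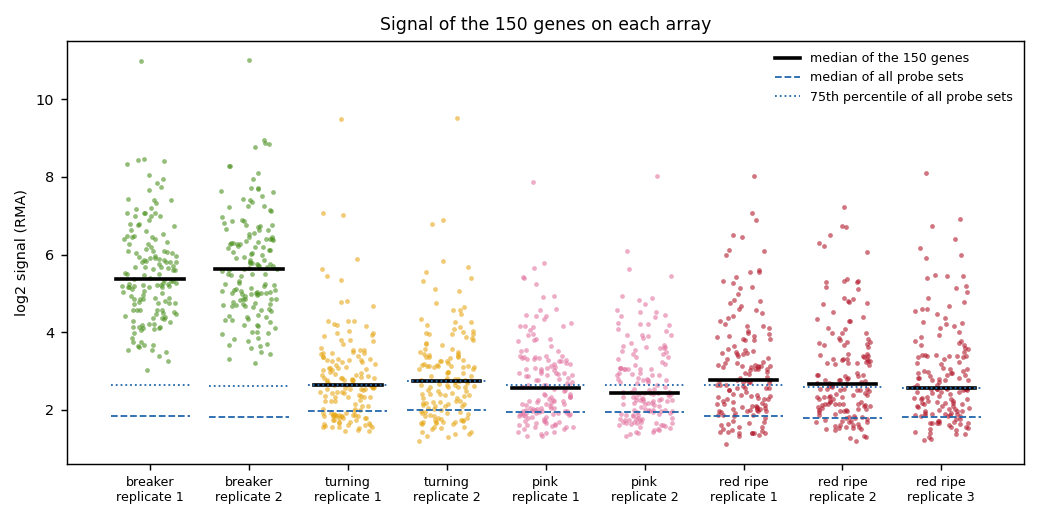
Each point is the log2 signal (RMA) of 1 of the 150 breaker-high genes on 1 array, with arrays ordered by stage. Solid lines are the median of the 150 genes, dashed lines the median and dotted lines the 75th percentile of all probe sets of the array. The median of the 150 genes was 5.38 and 5.63 on the breaker arrays and 2.43 to 2.76 on the later arrays, close to the 75th percentile of all probe sets.

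The name "shut off" describes a part of these genes. The files hold no detection call, so a signal at or below the median of all probe sets on every array of a stage was taken as near background. No breaker-high gene met this at breaker, whereas 29 (19.3%) did in turning, 27 (18%) in pink and 17 (11.3%) in red ripe fruit, against 32.7%, 35.7%, 35.7% and 32.1% of all genes at the 4 stages in the same order. The absence at breaker follows from the selection, which puts both breaker signals of a gene at least 1.35 above its later ones. At all 3 later stages 13 of the 150 (8.67%) were near background, against 24.9% of all genes, and 113 (75.3%) were near background at none. With the limit at the 75th percentile there were 62 such genes in turning fruit, 73 in pink fruit and 61 in red ripe fruit, against 54.2%, 53.1% and 46.3% of all genes. The 13 genes are ACS1A, LOC101259165, LOC101246651, LOC544061, LOC101248242, LOC101247085, LOC101261620, LOC101252532, LOC101246579, LOC101248806, LOC101254866, LOC778266 and LOC101249885, and the differences of these genes from breaker are lower bounds at best. At the other end, LOC101249342 had signals of 10.98 and 11.01 at breaker, 9.48 and 9.52 at turning, 7.86 and 8.01 at pink and 8.01, 7.22 and 8.10 at red ripe. It remained among the bright genes of the array throughout. In samples of whole tissue, fewer cells of a type and less RNA per cell cannot be told apart.

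Of the 150 genes 139 carry only a LOC number and 11 carry a gene symbol, and the study's supplementary descriptions name 5 of the LOC genes. The cell wall genes among them were Cel8, GP1, TBG6 and LOC101260057. Cel8 encodes an endo-1,4-beta-glucanase and TBG6 a beta-galactosidase, and LOC101260057 is described as a beta-D-glucosidase. GP1 encodes the beta-subunit of polygalacturonase, which holds that pectin-degrading enzyme in the wall. Cel8 had log2 signals of 7.44 and 8.11 at breaker, 3.60 and 3.19 at turning, 2.51 and 1.48 at pink and 4.22, 3.42 and 3.66 at red ripe. It was lowest at pink, and its red ripe arrays lay above both pink arrays. TBG6 had 7.06 and 8.28 at breaker, 4.21 and 3.98 at turning, 3.79 and 3.92 at pink and 4.68, 4.28 and 4.11 at red ripe. The breaker arrays differed more from each other than any later pair, and all later arrays stayed within a narrow band. GP1 had 5.59 and 6.01 at breaker, 2.60 and 2.79 at turning, 2.63 and 2.36 at pink and 2.15, 1.68 and 2.1 at red ripe, with its lowest signals at the last stage. LOC101260057 had 7.06 and 6.80 at breaker, 3.09 and 3.41 at turning, 3.82 and 2.92 at pink and 2.29, 1.95 and 2.18 at red ripe. Its level thus moved down again between pink and red ripe.

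Among genes of hormone synthesis, ACS1A encodes an ACC synthase, the enzyme that makes the precursor of ethylene, and opr3 a 12-oxophytodienoate reductase of jasmonate synthesis. ACS1A had signals of 4.14 and 4.18 at breaker, 1.49 and 1.20 at turning, 1.56 and 1.52 at pink and 1.44, 1.34 and 1.26 at red ripe. All later arrays were below the median of all probe sets. The values of opr3 were 5.95 and 6.27 at breaker, 3.09 and 2.97 at turning, 3.25 and 3.09 at pink and 4.17, 3.80 and 3.68 at red ripe, so that each red ripe array lay between the breaker arrays and the arrays of the stages before it.

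CHS1 encodes a chalcone synthase, which makes the chalcone from which the flavonoids of the fruit skin are formed. Its signals were 5.71 and 6.29 at breaker, 1.86 and 2.87 at turning, 3.96 and 4.20 at pink and 2.24, 1.88 and 1.72 at red ripe. It was low at turning, intermediate at pink and low again at red ripe. CAB4, a chlorophyll a/b-binding protein of the light-harvesting antenna, had 4.86 and 3.96 at breaker, 1.99 and 2.21 at turning, 1.97 and 2.08 at pink and 1.98, 2.06 and 1.83 at red ripe. PHOT2, a phototropin that in Arabidopsis senses blue light and moves chloroplasts, had 3.54 and 3.68 at breaker, 2.1 and 2.15 at turning, 2.09 and 1.89 at pink and 1.94, 1.99 and 2.09 at red ripe. At breaker both were below the median of the breaker-high genes, and afterwards they were flat, close to the median of all probe sets. TUB, a tubulin of the microtubules, was similar, with 3.97 and 4.32 at breaker, 1.55 and 2.09 at turning, 2.25 and 2.41 at pink and 2.04, 2.08 and 1.72 at red ripe.

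The gene with the largest gap, LOC101263374, is described as a purine permease, a membrane carrier that in plants takes up purines and related compounds. It had 8.34 and 7.71 at breaker, 3.80 and 3.27 at turning, 2.96 and 3.53 at pink and 2.76, 3.20 and 3.01 at red ripe. The pink arrays overlapped those of turning and of red ripe, and all were far below breaker. A pair of further carriers were LOC101249334, described as solute carrier family 35 member E3, with 6.61 and 7.15 at breaker, 3.39 and 2.15 at turning, 2.23 and 2.29 at pink and 2.08, 2.14 and 2.27 at red ripe, and LOC101254595, described as an organic cation/carnitine transporter, whose signal came back in part at red ripe as given below. LOC101266918, described as a chloroplastic D-3-phosphoglycerate dehydrogenase, an enzyme of serine synthesis, had 6.78 and 7.64 at breaker, 3.97 and 4.48 at turning, 3.31 and 2.33 at pink and 2.29, 2.12 and 1.65 at red ripe. Its mean moved down stage by stage.

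The symbols ACI19 and ARF1 are given without a role. ACI19 had 6.40 and 6.45 at breaker, 2.89 and 3.43 at turning, 3.39 and 3.92 at pink and 3.98, 3.99 and 3.77 at red ripe. For ARF1 the RefSeq gene of that symbol lies on another chromosome than the genes of all flanking probe sets, so the identity of the probed gene is unsettled; its signals were 6.47 and 6.39 at breaker, 4.19 and 4.64 at turning, 4.42 and 4.20 at pink and 4.03, 3.67 and 3.39 at red ripe. RefSeq lists the names of lipid transfer proteins, small secreted proteins that carry lipids, for a pair of the LOC genes. LOC101259287, with the synonym Sola l 7, an allergen of tomato seeds, had 7.41 and 6.31 at breaker, 4.29 and 3.58 at turning, 1.89 and 1.85 at pink and 3.81, 2.14 and 3.78 at red ripe. Its red ripe arrays disagreed with one another by more than its turning arrays did. LOC101266080, with the synonym ltp, had 4.75 and 4.40 at breaker, 2.90 and 2.76 at turning, 1.72 and 1.62 at pink and 1.32, 1.48 and 1.29 at red ripe.

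**Figure D2:**
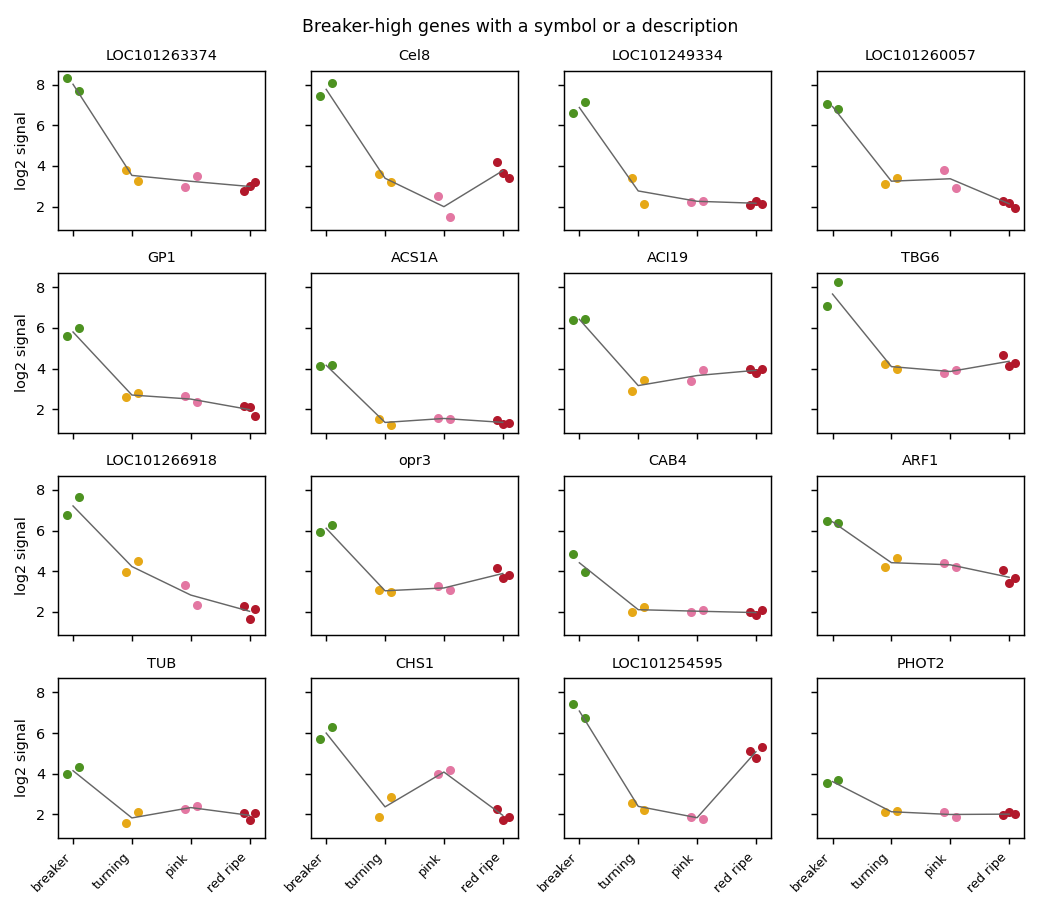
Log2 signal on each array (points) and stage means (lines) of the 16 breaker-high genes with a gene symbol or a description, from breaker to red ripe. CHS1 has an intermediate level at pink, LOC101254595 comes back in part at red ripe and LOC101266918 goes down at each stage, while the later levels of most others lie close together.

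The 30 genes with the largest gap, which reaches down to 2.41, held 26 LOC genes. Their breaker means lay between 4.16 and 8.02 and none of their later signals was above 4.80. LOC101244298 had 5.68 and 5.71 at breaker, 1.83 and 2.36 at turning, 1.42 and 1.59 at pink and 1.85, 1.82 and 1.23 at red ripe. LOC101260093 had 6.31 and 6.17 at breaker, 1.93 and 2.30 at turning, 2.15 and 2.89 at pink and 2.65, 2.67 and 2.65 at red ripe. In both the 2 breaker arrays were close to each other. LOC101251368, LOC101267953, LOC101251091, LOC101262601, LOC101255889, LOC101257010, LOC100736434, LOC101262502 and LOC101259486 were at 2.76 or below on every later array, while LOC101254175, LOC101262904, LOC101246792, LOC101244006 and LOC101267673 kept signals of 2.26 or more on all of them. The largest difference between the 2 breaker arrays was in LOC101257020, with 4.56 and 6.38. Around the limit of 150 genes the gaps were 1.36 for LOC101262728, 1.36 for LOC101248218 and 1.35 for LOC101263369 inside it, and 1.35 for LOC101247575, 1.35 for LOC101263085 and 1.34 for LOC101263076 outside, so that the limit separates genes of almost equal gap. For LOC100736434 the flanking probe sets are mixed, with 50% of them on 1 chromosome, and RefSeq places the gene on a different one, so its identity is unsettled as well.

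The comparisons among turning, pink and red ripe did not enter the selection except through the highest later signal, which the rule keeps below breaker and which so limits how far a gene can come back. These comparisons were tested with limma over all 67795 probe sets, with calls at a fold change over 2 and an adjusted p under 0.05. Of the 150 genes 115 passed none of the 3, but the share of all genes that passed none was not taken, so this count has no reference. At red ripe against turning 15 genes (10%) were higher and 7 (4.67%) lower, where 22.2% and 1.55% of all genes were, and at red ripe against pink 19 (12.7%) were higher and 4 (2.67%) lower, where 18.9% and 1.59% of all genes were. At pink against turning 3 were higher and 7 lower (2.28% and 0.905% of all genes). The median difference of the 150 genes was 0.01, 0.13 and -0.11 in these comparisons, against 0.12, 0.10 and 0.01 over all genes. The split depended on the scaling of the arrays. Red ripe against turning gave 8 higher and 14 lower after quantile normalization and 5 higher and 21 lower after cyclic loess normalization, and red ripe against pink gave 12 and 7 and then 7 and 9. The shares of all genes called after these normalizations are not given here, so these counts cannot be set against all genes. The median of the 150 genes at red ripe against turning was -0.18 after cyclic loess normalization and at red ripe against pink -0.05. The median of all genes at red ripe against turning was 0.31 after centring each array on its median, against 0.12 as deposited.

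**Figure D3:**
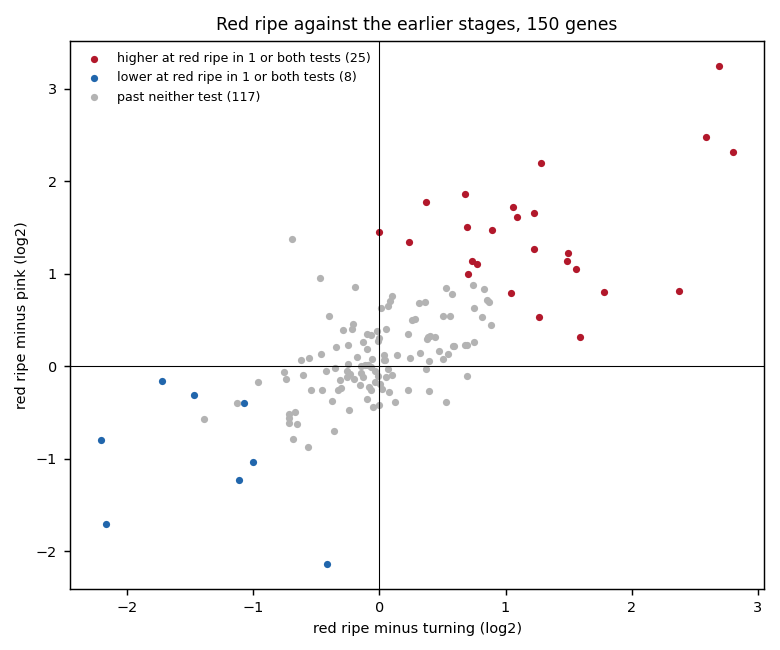
Difference of log2 signal at red ripe from turning (horizontal axis) and from pink (vertical axis) for the 150 breaker-high genes, which share the red ripe arrays. Red points (25 genes) were higher and blue points (8 genes) lower at red ripe in 1 or both tests of limma, and 117 grey points passed neither. The shares of all genes in these classes were not taken. Most points lie around the origin, and LOC101254595, LOC101254823 and LOC101244548 lie apart at the upper right.

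A group of genes was low at turning and pink and came back in part at red ripe. LOC101254595, the transporter named above, had 5.13, 5.33 and 4.78 at red ripe against 2.56 and 2.22 at turning and 1.89 and 1.77 at pink, where breaker had 7.41 and 6.76. It rose by 2.69 against turning (SE 0.23, adjusted p = 8.76e-05) and by 3.25 against pink (SE 0.23, adjusted p = 4.46e-05). LOC101254823 had 5.41, 5.16 and 5.20 at red ripe against 2.52 and 2.39 at turning and 3.28 and 2.60 at pink, and rose by 2.80 (SE 0.20, adjusted p = 3.11e-05) and 2.32 (SE 0.20, adjusted p = 1.06e-04). LOC101244548 had 6.12, 6.30 and 6.16 at red ripe against 3.35 and 3.85 at turning and 3.52 and 3.91 at pink, and rose by 2.59 (SE 0.19, adjusted p = 3.38e-05) and 2.48 (SE 0.19, adjusted p = 5.65e-05). In all 3 genes the red ripe arrays lay close together and above every turning and pink array, yet below both breaker arrays as the rule requires. These 6 calls held in each of the 19 alternative settings.

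Others of this group were less firm. LOC101255519 was already higher at pink, with 4.35 and 4.42, than at turning, with 3.28 and 2.96 (difference 1.26, SE 0.17, adjusted p = 0.00956), and had 4.80, 4.72 and 4.60 at red ripe, 1.59 above turning (SE 0.16, adjusted p = 1.83e-04). LOC101247356 had 3.93 and 4.51 at pink against 2.16 and 3.15 at turning (difference 1.56, SE 0.32, adjusted p = 0.0455), and 5.17, 4.88 and 5.04 at red ripe, 2.38 above turning (SE 0.29, adjusted p = 5.9e-04). LOC101253959, LOC101244418, LOC101264237 and LOC101247321 also passed, the first pair at red ripe against turning (differences 1.27 and 1.49) and the other pair at red ripe against pink (1.47 and 1.65). LOC101244418 was also higher at red ripe than at pink (1.14, adjusted p = 6.25e-04) and LOC101247321 also higher at red ripe than at turning (1.23, adjusted p = 6.67e-04). These 2 calls and that of LOC101247356 at red ripe against turning were not recomputed gene by gene under the alternatives. After cyclic loess normalization the difference was 0.74 in LOC101255519 at red ripe against turning, 0.45 in LOC101253959 (0.24 after quantile normalization), 0.72 in LOC101244418, 0.93 in LOC101264237 and 0.99 in LOC101247321, all under the 2-fold limit. LOC101252808 had its lowest level at pink, with 4.10, 3.98 and 4.01 at red ripe against 2.20 and 2.14 at pink (difference 1.86, SE 0.14, adjusted p = 6.77e-05), a call that held in all 19 alternatives, and 3.28 and 3.43 at turning.

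A smaller group went down further after turning. LOC101263369 had 3.22, 3.45 and 3.59 at red ripe against 5.63 and 5.55 at turning and 5.41 and 4.84 at pink, and fell by 2.17 against turning (SE 0.22, adjusted p = 2.11e-04) and by 1.71 against pink (SE 0.22, adjusted p = 9.53e-04). The dehydrogenase gene LOC101266918 fell by 2.21 at red ripe against turning (SE 0.36, adjusted p = 0.00265), the lipid transfer protein gene LOC101266080 by 1.47 (SE 0.15, adjusted p = 2.05e-04) and the bright gene LOC101249342 by 1.72 (SE 0.24, adjusted p = 0.00124). Each red ripe array of these 4 genes lay below both turning arrays, and these calls held in all 19 alternatives. LOC101260057, the beta-D-glucosidase gene, fell by 1.23 at red ripe against pink (SE 0.26, adjusted p = 0.0118), but without pink replicate 1 the difference was -0.78 and the call was lost. LOC101244370 and LOC101259602 fell by 1.08 and 1.01 at red ripe against turning, and LOC101259602 by 1.04 against pink, all just past the 2-fold limit and under it without red ripe replicate 3 (-0.99, -0.91 and -0.94). The calls of LOC101259602 were also lost without turning replicate 2 (-0.71 against turning) or pink replicate 1 (-0.95 against pink). CHS1 had another course. It fell by 2.13 at red ripe against pink (SE 0.31, adjusted p = 0.00169), a call that held in all 19 alternatives, and its difference of -0.42 at red ripe against turning did not pass the test.

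**Figure D4:**
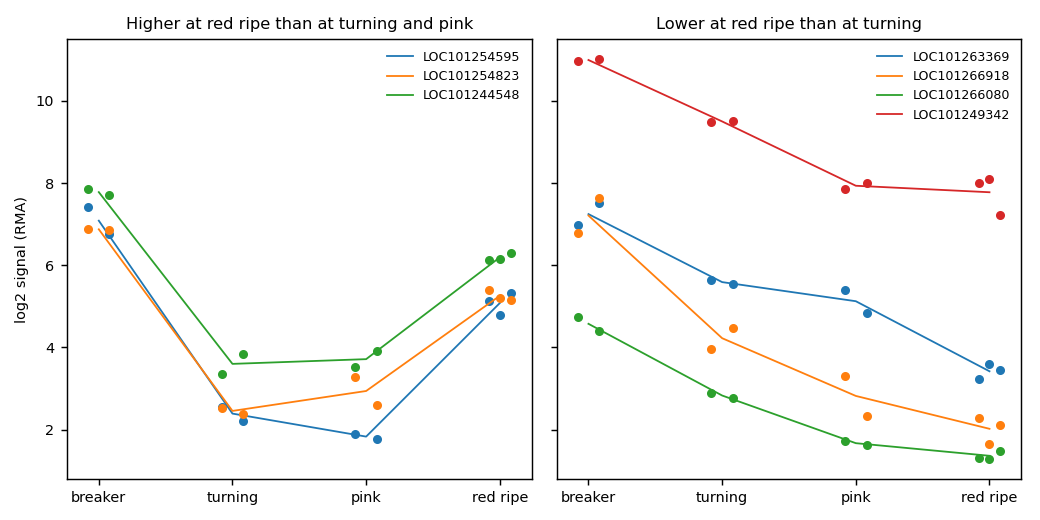
Log2 signal on each array (points) and stage means (lines) of breaker-high genes whose calls at red ripe against turning held in all alternatives. On the left LOC101254595, LOC101254823 and LOC101244548 are low at turning and pink and higher at red ripe, and on the right LOC101263369, LOC101266918, LOC101266080 and LOC101249342 are lower at red ripe than at turning.

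The calls at pink against turning rest on the 2 noisiest stages, for which limma's array weights were 0.4 (turning) and 0.57 (pink), against 2.21 for the breaker arrays. CHS1 was higher at pink by 1.71 (SE 0.34, adjusted p = 0.039), and LOC101266080, LOC101249342, LOC101248835, LOC101252808, LOC101261259 and LOC101262728 fell by 1.16, 1.56, 1.46, 1.19, 1.11 and 1.04. No call was left for any breaker-high gene in this comparison with array weights or with only the 2 stages in the limma fit, while with an unadjusted p 3 genes were higher and 10 lower in the fit of all stages. The number higher was 1 without any 1 array other than turning replicate 2, and 5 without that array, and the number lower was 4 without pink replicate 1 or pink replicate 2. CHS1 and LOC101247356 lost their calls without any 1 array other than turning replicate 2, LOC101249342 without either breaker or pink array or turning replicate 1, LOC101261259 without either pink array or turning replicate 1, and LOC101262728 without any 1 red ripe or pink array or turning replicate 1.

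The families of the named genes were looked at through 60 other genes with symbols on the array. At turning 4 of the 60 were higher than breaker and 15 lower (1.31% and 16.7% of all genes), at pink 4 and 12 (1.58% and 13.7%) and at red ripe 6 and 9 (3.51% and 2.98%). After quantile normalization 6 were lower at pink, and without breaker replicate 2 the number higher was 2 at turning and 2 at pink. At red ripe against breaker 0 of 5 other endoglucanases, 0 of 5 beta-galactosidases and 2 of 7 pectin enzymes were lower. The same was so of 0 of 8 genes of ethylene synthesis, 1 of 5 of jasmonate synthesis and 1 of 8 of light perception and signalling. Of the photosynthesis genes 2 of 9 were lower, and of the cell division genes listed with TUB 0 of 10. That list held no other tubulin, so TUB was not set against its own family. Medians over the other members lay between -0.50 and 0.24 in these lists, against 0.04 over all genes. Several genes of the lists were near background already at breaker, so a fall could hardly show in them. Breaker means were 1.47, 1.27 and 1.49 in ACS3, ACS5 and ACO1, and 1.425, 1.285 and 1.5 in CycA2, cdkB2 and cdc2A-1. Others were well above background at breaker, such as ACS2 with 5.365 and CycA3 with 6.04. The counts of genes not lower thus do not show that these families stayed level.

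Among the cell wall enzymes Cel2, the endoglucanase of ripe fruit, went against Cel8, with 10.79, 10.30 and 10.70 at red ripe against 6.50 and 6.21 at breaker (difference 4.24, SE 0.17, adjusted p = 1.04e-05). PG2, the polygalacturonase of ripening, rose by 2.03 at red ripe against breaker (SE 0.15, adjusted p = 1.59e-04), while GP1, whose product is the partner of that enzyme, had a difference of -3.82. TBG1, TBG2 and TBG3 fell by 2.64, 1.69 and 2.32 at turning against breaker and fell by 2.56, 1.80 and 2.62 at pink, and at red ripe their differences from breaker were -0.35, -0.07 and 0.67, against -3.31 for TBG6. TBG7 rose by 1.76 at red ripe (SE 0.30, adjusted p = 0.0136). Of the pectin methylesterases, enzymes that strip methyl groups from pectin, PMEU1 fell by 1.92 at red ripe against breaker (SE 0.24, adjusted p = 0.00257) and PME2.1 by 1.48 (SE 0.20, adjusted p = 0.00348). PMEU1 was lower at all 3 later stages, with a gap of 1.20 that placed it at rank 191 of the selection.

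Flavonoid synthesis was the family whose other members were all lower at red ripe, 3 of 3. F3H, a flavanone 3-hydroxylase, had 5.13, 4.72 and 4.85 at red ripe against 8.66 and 8.64 at breaker (difference -3.75, SE 0.20, adjusted p = 2.72e-05), and MYB12, a transcription factor of the pathway, and CHS2, the other chalcone synthase, fell by 2.89 (SE 0.23, adjusted p = 2.06e-04) and 2.42 (SE 0.14, adjusted p = 4.04e-05). Their earlier course differed from one another, since CHS2 had 8.01 and 8.02 at turning against 8.06 and 7.99 at breaker, whereas MYB12 had 3.51 and 3.40 at turning and 5.01 and 5.25 at pink against 5.0 and 4.70 at breaker, and 2.06, 1.51 and 2.30 at red ripe. CHS2 and MYB12 also serve below as markers of the epidermis and cuticle, and the cuticle regulator CD2, the other such marker, had 4.25, 4.06 and 3.96 at red ripe against 5.64 and 5.62 at breaker. The part of that tissue in these differences was not tested. In CHS1 and in MYB12 both pink arrays lay above all arrays of turning and red ripe. F3H stood at rank 174 of the selection.

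In ethylene synthesis ACS2, an ACC synthase of ripening, had 3.00 and 3.02 at turning but 6.23, 5.80 and 6.05 at red ripe against 5.70 and 5.03 at breaker, and the ACC oxidase aco5 rose by 2.28 at red ripe (SE 0.35, adjusted p = 0.00764) after signals of 2.80 and 2.30 at turning. ACS1A stayed near background. In jasmonate synthesis aoc, an allene oxide cyclase that acts before opr3, fell by 1.93 at red ripe (SE 0.20, adjusted p = 0.00105) and was lower at all 3 later stages, while loxD, a lipoxygenase that acts at the start of the pathway, rose by 1.63 (SE 0.34, adjusted p = 0.0334). Among photoreceptors Cry1b, a blue light cryptochrome, was lower than breaker at all 3 later stages, by 1.91 at red ripe (SE 0.30, adjusted p = 0.00885), whereas PHOT1, the other phototropin, had 4.80 and 5.22 at turning and 8.05, 7.88 and 7.93 at red ripe against 7.33 and 7.96 at breaker. COP1, a repressor of light responses, rose by 1.64 at red ripe (SE 0.15, adjusted p = 4.94e-04). Of the photosynthesis genes PsbQ, a subunit of photosystem II, fell by 3.96 at red ripe (SE 0.31, adjusted p = 2.02e-04) and psaD, a subunit of photosystem I, by 2.99 (SE 0.17, adjusted p = 3.66e-05). PsbQ still had 4.29 and 5.07 at turning and 4.57 and 5.54 at pink, where its differences from breaker did not pass the test.

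**Figure D5:**
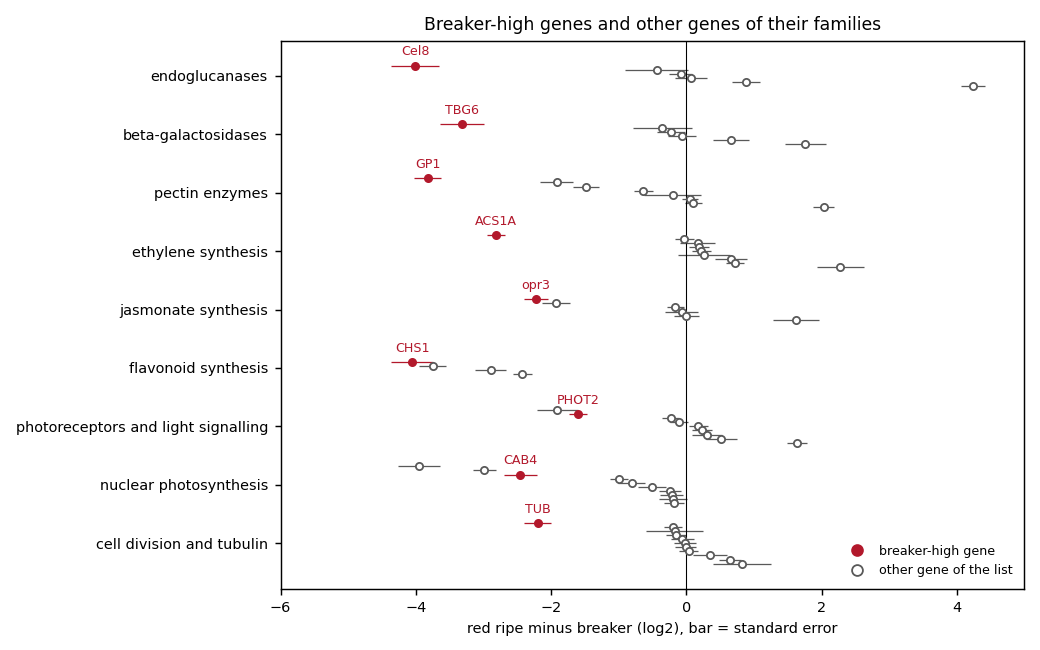
Difference of log2 signal at red ripe from breaker (points) with its standard error (bars) for breaker-high genes (filled, named) and the other genes of 9 symbol lists (open). In most lists the breaker-high gene lies at the lower end by its selection and the others around 0, while the 3 other flavonoid genes are all below -2. Several of the other genes were near background already at breaker.

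Some genes have different probe sets, of which the rule took the one with the largest gap. For 10 of the 150 genes the array has 26 further probe sets, of which 19 had a gap above 0, with a range from -1.19 to 1.65 and a median of 0.64. LOC101259130 had 10 further probe sets, and all 10 had a gap above 0 (0.33 to 1.49), beside 1.61 for the one selected. In 3 genes no further probe set had a gap above 0. LOC101261227 had 5 further probe sets with gaps of -1.19 to -0.45 and LOC101248601 had 1 with -0.45, and at breaker all 6 were at 1.96 or below. LOC101247085 had 1, with 4.15 and 4.16 at breaker, 3.79 and 4.71 at turning, 4.37 and 5.07 at pink and 5.26, 4.91 and 4.64 at red ripe. The selected probe set of that gene was near background at all later stages, so its 2 probe sets disagree.

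By the RefSeq annotation of assembly SLM_r2.1 all 150 genes are protein-coding, and 148 could be placed. Among them LOC101267693 lies next to LOC101267393 and LOC101255107 next to LOC101254806, and LOC101246135 and LOC101247015 have 1 protein-coding gene between them. How often as many other genes of the array lie so close is not given, so these pairs have no reference. LOC101267393 had 7.19 and 6.55 at breaker, 3.10 and 3.10 at turning, 3.39 and 3.60 at pink and 3.24, 2.70 and 3.21 at red ripe, and its neighbour had 5.83 and 6.30, 2.43 and 2.42, 2.65 and 2.91, and 2.62, 2.36 and 2.53 in the same order of stages. The 2 breaker arrays stood in opposite order in the 2 genes, and whether probes of 1 read transcripts of the other was not tested.

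Markers of tissues that the samples could hold moved as follows. The summed log2 signal of the 4 epidermis and cuticle genes matched of 6 (CHS1, CHS2, MYB12 and CD2) was 24.4 to 24.6 on breaker arrays, 20.9 to 21.7 on turning arrays, 22.5 to 23.0 on pink arrays and 13.0 to 14.4 on red ripe arrays, and CHS1 is itself a breaker-high gene. Without CHS1 the sum was 18.3 to 18.7, 18.9 to 19.1, 18.5 to 18.8 and 11.1 to 12.1 over the same stages. That sum joins markers that moved apart at turning. MYB12 was then lower, with 3.51 and 3.40 against 5.0 and 4.70 at breaker. CD2 was higher, with 7.53 and 7.45 against 5.64 and 5.62, and CHS2 was level. The sum of the 3 green tissue genes matched of 3 (CAB4, RBCS-1 and RBCS-2A) was 7.43 to 8.31, 5.79 to 6.17, 5.48 to 5.89 and 4.65 to 5.21 over the same stages, with both RBCS genes at or below 2.51 on every array. Without the breaker-high gene CAB4 the sum was 3.45 to 3.47, 3.58 to 4.18, 3.51 to 3.81 and 2.59 to 3.38. The breaker means of RBCS-1 and RBCS-2A were 1.985 and 1.475, where the medians of all probe sets were 1.84 and 1.82. A fall of these genes at turning or pink could therefore hardly show, and their sum does not tell whether green tissue declined. The 6 ripening pericarp genes matched of 10 (PG2, EXP1, Psy1, NAC-NOR, TDR4 and Cel2) summed to 47.8 to 49.6, 44.6 to 44.9, 50.7 to 50.9 and 56.8 to 57.4. These markers also moved apart at turning. EXP1 and NAC-NOR had means of 1.58 and 8.67 there against 4.715 and 10.88 at breaker, and Psy1 and TDR4 were lower too. PG2 and Cel2 were higher, with 10.325 and 8.46 against 9.295 and 6.355. The labels name pericarp and the methods in 1 sentence abscission zones, whose 4 matched genes of 8 summed to 9.52 to 11.6, 8.32 to 9.19, 10.7 to 11.1 and 9.46 to 10.5, with cel5, TAPG2 and TAPG4 at 2.94 or below on every array and Cel1 at 6.99 and 5.16 at breaker. The seed gene ABI3, the only 1 matched of 3, was at 1.5 to 2.26 on all arrays. The part of these tissues in the levels of the breaker-high genes was not tested. Replicate arrays correlated with r of 0.939 to 0.991 across probe sets. The methods state 2 independent biological replicates per stage, so the independence of the third red ripe array is not stated. The p-values rest on the spread between replicate arrays within a stage, moderated over all probe sets, and the number of these 9 arrays limits the precision.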

How the data were processed

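The deposited table holds log2 signals, which the authors made with RMA in Affymetrix Expression Console (Transcriptome Analysis Console 2.0 is also named in their processing notes); these values were used as deposited for all 9 arrays and 67795 probe sets. Of these, 23194 carry 1 gene symbol, 170 several and 44431 none. A mean per stage was fitted with limma 3.58.1 in R 4.3.3 (5 residual and 3.65 prior degrees of freedom), adjusted by Benjamini-Hochberg over all probe sets, and the fit and the selection rule were tested on simulated data. For the rule the planted rises at breaker were larger than any found here, so that test does not cover genes near the limit. Of genes with several probe sets the one with the largest gap was taken, for the selection and for the shares and medians over all genes. For family genes outside the breaker-high genes and for the markers the one with the highest mean was taken. The family genes are thus set against probe sets chosen in favour of breaker. Equal gaps at the limit were ordered by probe set number. The breaker-high genes and all lists were chosen with earlier results of these data known, and the family lists were formed from gene symbols, because the annotation has no descriptions. The text names the 30 largest gaps, all genes with a symbol, up to 6 called genes per comparison and direction by adjusted p, the genes at the limit and up to 3 genes per list at red ripe; others were named after their values were seen. Genes were checked against RefSeq of assembly SLM_r2.1, and no coordinates are given because the array names no assembly.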

Additional observations from a re-analysis of the deposited data

How the results depend on the processing

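Of the calls recomputed for named breaker-high genes between the later stages none changed direction, and 0 of 9 held in all 19 alternatives at pink against turning, 7 of 12 at red ripe against turning and 6 of 10 at red ripe against pink. The replicate numbers did not pair the arrays, since same-numbered arrays deviated together with r of -0.008 to 0.09; with a replicate block 1 breaker-high gene was higher and 4 lower at pink against turning. With array weights 0 and 0 were, and with only the 2 stages compared 0 and 0, where an unadjusted p in the limma fit of all stages gave 3 and 10. Median centring gave 4 lower at red ripe against turning. Quantile normalization gave 8 higher and 14 lower at red ripe against turning, 12 and 7 at red ripe against pink, and 6 family genes lower at pink, and cyclic loess normalization gave 5 and 21 and then 7 and 9. Without a fold threshold 28 were higher and 14 lower at red ripe against turning, and 8 lower at red ripe against pink. The cause of these shifts was not tested, apart from the looser limits. The shares of all genes called under these settings are not given, so the counts cannot be set against all genes. Near background at the 75th percentile were 62, 73 and 61 genes at turning, pink and red ripe. With each array left out in turn, 1 to 5 were higher and 4 to 7 lower at pink against turning, 12 to 20 and 5 to 9 at red ripe against turning, and 16 to 20 and 2 to 5 at red ripe against pink (2 without pink replicate 1). Family genes higher and lower were 2 to 5 and 12 to 17 at turning, 2 to 5 and 10 to 13 at pink and 4 to 6 and 8 to 10 at red ripe, and near background, with fewer arrays to meet the limit, were 36 to 41, 38 to 39 and 17 to 19 genes at turning, pink and red ripe. The selection itself kept 111 of its 150 genes without breaker replicate 1 and 116 without breaker replicate 2, 137 to 148 without any other array, and 140, 115 and 117 after median centring, quantile and cyclic loess normalization. No value has a detection call, so signals near the lower end limit the size of differences.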

Other observations

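Outside the 150 genes, 40 probe sets that carry either no gene symbol or several in the array annotation had a gap of at least 1.35, the smallest among the breaker-high genes. They are left unnamed here.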
